A study of Homo sapiens with 6 samples.

Results

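The genes described here are 36 genes of mitosis: the kinases and cyclins that start it, the spindle checkpoint, the kinetochore, the mitotic kinesins, condensin and cytokinesis. They were chosen as a list of symbols by their known roles, with earlier results of these data known. All 36 were found among the 16199 rows of the count table. The table comes from the human embryonic stem cell line H1, in an iCLIP experiment that pulled down Ago2. This Argonaute protein carries microRNAs to the RNAs they pair with, and iCLIP crosslinks protein to RNA with ultraviolet light and sequences what stays bound. The cells differed in DICER1, which encodes Dicer, the enzyme that cuts microRNA precursors. The homozygous group carried the Dicer S1344L substitution on both alleles (pm/pm in the protocol's shorthand). The hemizygous group carried S1344L opposite an allele that the protocol writes as fs (pm/fs), and the last group was wild-type. All 3 groups had grown for 10 days in medium depleted of doxycycline and were exposed to light of 254 nm at 150 mJ/cm2, and each is represented by 2 libraries. The sources used here do not say how many clones stand behind a genotype, nor whether its 2 libraries were grown as separate cultures. The p-values below therefore reflect only how far these libraries differ from each other, and that spread may be technical. A count in this table can differ through the level of a transcript or through its binding by Ago2, and these cannot be told apart.

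Entry into mitosis is driven by cyclin-dependent kinase 1 bound to a B-type cyclin, with help from the Polo and Aurora kinases. The spindle checkpoint then holds CDC20, the activator of the anaphase-promoting complex, until every kinetochore has attached to microtubules. Most of these genes are transcribed late in the cell cycle, under FOXM1 and the MuvB complex, which recognises the cell cycle genes homology region, and NF-Y, which binds CCAAT boxes. Embryonic stem cells divide fast and hold these transcripts at high levels.

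The promoters of the 36 genes show the sequence features they share. RefSeq (GRCh38.p14) windows of 300 bases, 250 before and 50 after an annotated start, were found for 30 of the 36 genes, as 33 windows. The core of the homology region, TTTGAA, was searched on both strands and stood in 24 of the 33 windows (72.7%), against 15.2% of all 35116 windows. The CCAAT box, also searched on both strands, stood in 25 (75.8%), against 34.6% of all windows, and both motifs stood in 18 (54.5%), against 5.9%. Matches to the 2 motifs may share bases, the windows of a gene with several starts can share bases, and a match describes letters, not a bound site. The windows of CENPE and KIF2C held neither motif.

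The following stretches, the 150 bases just before the annotated start, are shown 5′ to 3′ with matches to either motif on either strand in capitals. CENPF (chr1:214603045-214603194, plus strand), KIF23 (chr15:69414199-69414348, plus strand) and CENPA (chr2:26785906-26786055, plus strand) are shown because they were among the genes with the smallest unadjusted p in a comparison. CDC20 (chr1:43358831-43358980, plus strand) and CCNB2 (chr15:59104996-59105145, plus strand) are shown because they carry both motifs close together. The windows of CENPF, CENPA, CDC20 and CCNB2 also hold matches outside the printed stretch. In CENPF the only TTTGAA match is among these, 40 bases after the start, with a CCAAT match 12 bases after it on the other strand.
CENPF: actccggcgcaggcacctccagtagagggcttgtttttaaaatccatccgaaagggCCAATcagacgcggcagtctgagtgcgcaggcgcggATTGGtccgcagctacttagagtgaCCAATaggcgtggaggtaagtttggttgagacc
KIF23: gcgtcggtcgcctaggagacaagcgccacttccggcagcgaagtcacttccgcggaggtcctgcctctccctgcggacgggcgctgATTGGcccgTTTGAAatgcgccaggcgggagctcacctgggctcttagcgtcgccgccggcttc
CENPA: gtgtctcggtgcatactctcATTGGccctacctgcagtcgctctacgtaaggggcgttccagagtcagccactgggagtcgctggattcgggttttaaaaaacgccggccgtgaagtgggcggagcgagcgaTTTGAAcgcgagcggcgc
CDC20: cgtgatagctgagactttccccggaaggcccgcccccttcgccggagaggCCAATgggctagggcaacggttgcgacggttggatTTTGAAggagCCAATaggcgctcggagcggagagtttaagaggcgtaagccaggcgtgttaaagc
CCNB2: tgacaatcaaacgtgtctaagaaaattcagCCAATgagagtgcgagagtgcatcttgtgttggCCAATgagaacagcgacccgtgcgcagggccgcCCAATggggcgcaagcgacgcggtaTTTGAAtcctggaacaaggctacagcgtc

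**Figure D1:**
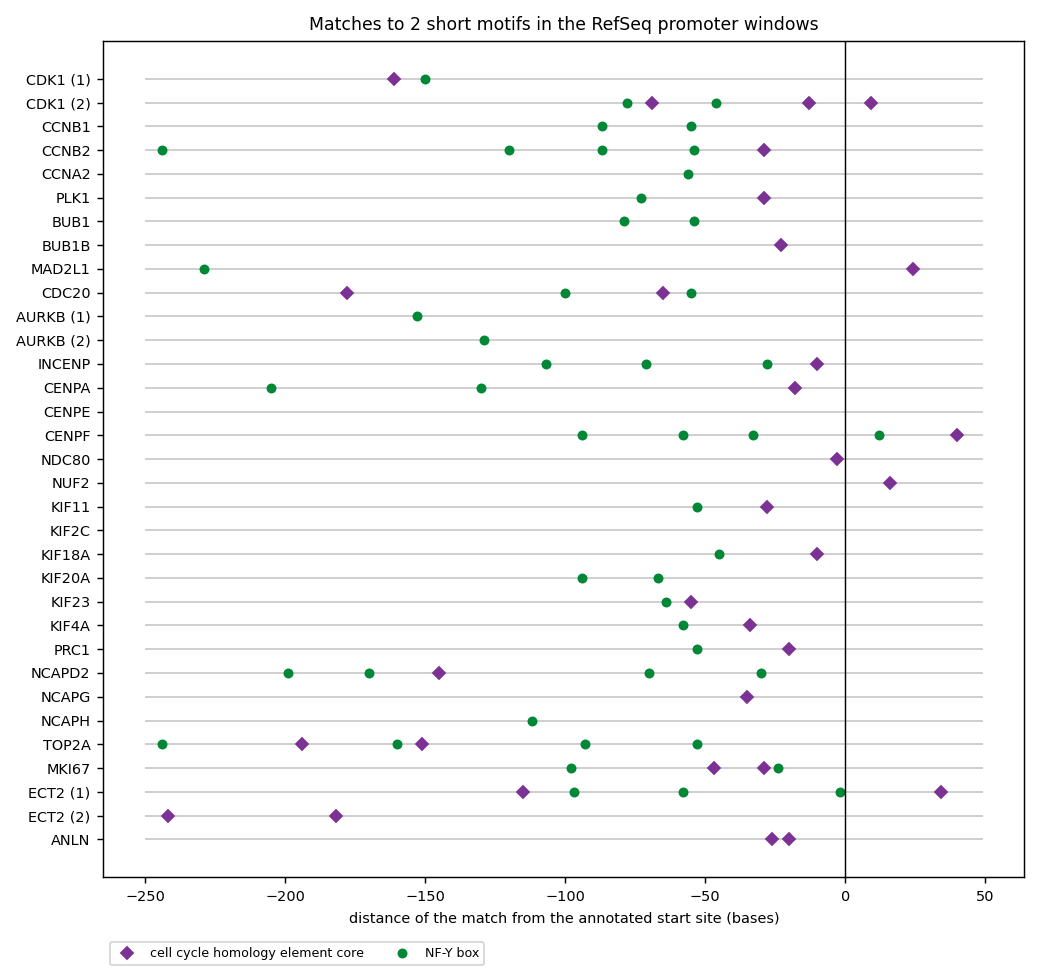
Matches to the core of the cell cycle genes homology region (diamonds) and to the NF-Y box (circles) in the 33 RefSeq promoter windows of 30 mitotic genes, plotted by distance in bases from the annotated start (line at 0, first base of the match); a number in brackets tells several starts of a gene apart. In CCNB2 and PLK1 the diamond stands close to the start with circles upstream of it, while CENPE and KIF2C have no match.

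Depth and sample checks apply to every value below. Libraries held 46.2 M and 39.6 M counts in the homozygous group, 39.7 M and 51.6 M in the hemizygous group and 52.9 M and 38.2 M in wild-type. The fitted log2 fold change of DICER1 was -0.26 (SE 0.19) in homozygous and -0.46 (SE 0.19) in hemizygous against wild-type libraries. The unadjusted p by edgeR was 0.210 and 0.0456, and neither change passed the test after adjustment. Both hemizygous libraries of DICER1 lay below both wild-type ones, while the homozygous group overlapped wild-type. Whether the substitution or the fs allele altered this count was not tested. All 8 pluripotency markers were measured, with summed levels of 9391 and 8841 CPM in homozygous, 10261 and 9185 CPM in hemizygous and 8740 and 8507 CPM in wild-type libraries, CPM being counts scaled to a common library size and composition by TMM, edgeR's trimmed mean method. Of the markers of other cell types, 8 of 12 fibroblast and stromal genes, 5 of 8 neuroectoderm genes, 1 of 7 mesendoderm genes and 1 of 5 trophoblast genes had a row; TBXT, EOMES, SOX17, GATA3, PAX6, SOX1, DCN and LUM had none. The stromal sum was 796 and 865 CPM in homozygous, 1096 and 896 CPM in hemizygous and 1151 and 970 CPM in wild-type libraries, so it was highest in replicate 1 of the hemizygous and wild-type groups. Its largest part in every library came from THY1, which was higher in replicate 2 of every genotype. THY1 had 333 and 394 CPM in homozygous, 334 and 379 CPM in hemizygous and 420 and 468 CPM in wild-type libraries. In homozygous against wild-type libraries 7 of the 8 stromal markers lay below 0, with a median log2 fold change of -0.42. Between libraries of the same replicate number, that median was -0.68 for replicate 1 (1 of 8 above 0) and -0.05 for replicate 2 (3 of 8 above 0). All 5 measured neuroectoderm markers lay above 0 in hemizygous and 3 of 5 in homozygous against wild-type libraries, with medians of 0.75 and 0.40. ZIC1, a transcription factor of the early neural plate, had 28.2 and 28.0 CPM in homozygous, 41.0 and 58.9 CPM in hemizygous and 17.9 and 16.3 CPM in wild-type libraries. DCX, of migrating neurons, had 4.01 and 4.65 CPM in homozygous, 5.58 and 5.58 CPM in hemizygous and 3.28 and 3.30 CPM in wild-type libraries. FABP7, of radial glia, had 5.62 and 8.15 CPM in homozygous, 4.22 and 5.81 CPM in hemizygous and 2.99 and 2.99 CPM in wild-type libraries. All mutant libraries of these 3 genes stood above both wild-type ones. Over all genes 14.2% did so in the homozygous and 8.13% in the hemizygous group. The other 2 markers lay below wild-type in the homozygous group, as 13.6% of all genes did, and overlapped it in the hemizygous group. MAP2 had 5.31 and 5.27 CPM in homozygous and 8.41 and 5.76 CPM in wild-type libraries. NES had 386 and 371 CPM in homozygous and 472 and 429 CPM in wild-type libraries. None of the 5 was called by edgeR (lowest adjusted p = 0.710, in hemizygous against wild-type libraries). The summed neuroectoderm level, most of it from NES, which many cell types express, was 429 and 417 CPM in homozygous, 575 and 478 CPM in hemizygous and 504 and 458 CPM in wild-type libraries. The part of these markers in the results was not tested, and in such bulk samples fewer cells of a type cannot be told apart from less RNA per cell.

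The 36 genes held about the same small share of every library. Their summed share was 0.627% (95% exact binomial interval 0.625% to 0.629%) and 0.589% (0.586% to 0.591%) of counts in the homozygous libraries. It was 0.585% (0.582% to 0.587%) and 0.598% (0.596% to 0.600%) in the hemizygous libraries. In the wild-type libraries it was 0.580% (0.578% to 0.582%) and 0.614% (0.612% to 0.617%), and these intervals cover counting error only. The homozygous libraries thus held the highest share and a middle one, and the groups overlapped. These shares use library totals without TMM scaling. After TMM scaling the summed level was 6377 and 5735 CPM in homozygous, 6051 and 5858 CPM in hemizygous and 5916 and 5998 CPM in wild-type libraries. On that scale the homozygous libraries were the highest and the lowest. Levels of different genes are not ranked against each other here, because counts were not divided by transcript length.

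No mitotic gene passed the test in any comparison. edgeR's quasi-likelihood test with Benjamini-Hochberg adjustment called 0 of the 36 genes, and 0 of all 16199 (0%), in each of the 3 comparisons. At an unadjusted p under 0.05, 1 of the 36 was reached in homozygous against wild-type libraries, where 2.69% of all genes were. None was reached in hemizygous against wild-type (0.870% of all genes) or in homozygous against hemizygous libraries (0.765%). DESeq2 and limma-voom also called 0 of the 36 in every comparison. The 95% intervals of the 36 fold changes do not bound an effect of genotype, because variation between clones or cultures may be missing from them. They were computed gene by gene, so they need not hold for all 36 at once, and from a model without a replicate term. They reached from -0.71 to 0.88 on the log2 scale in homozygous against wild-type, from -0.62 to 0.82 in hemizygous against wild-type and from -0.78 to 0.69 in homozygous against hemizygous libraries. Every interval thus stayed inside a log2 change of 1 in size, and only that of CENPF in homozygous against wild-type libraries left out 0.

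**Figure D2:**
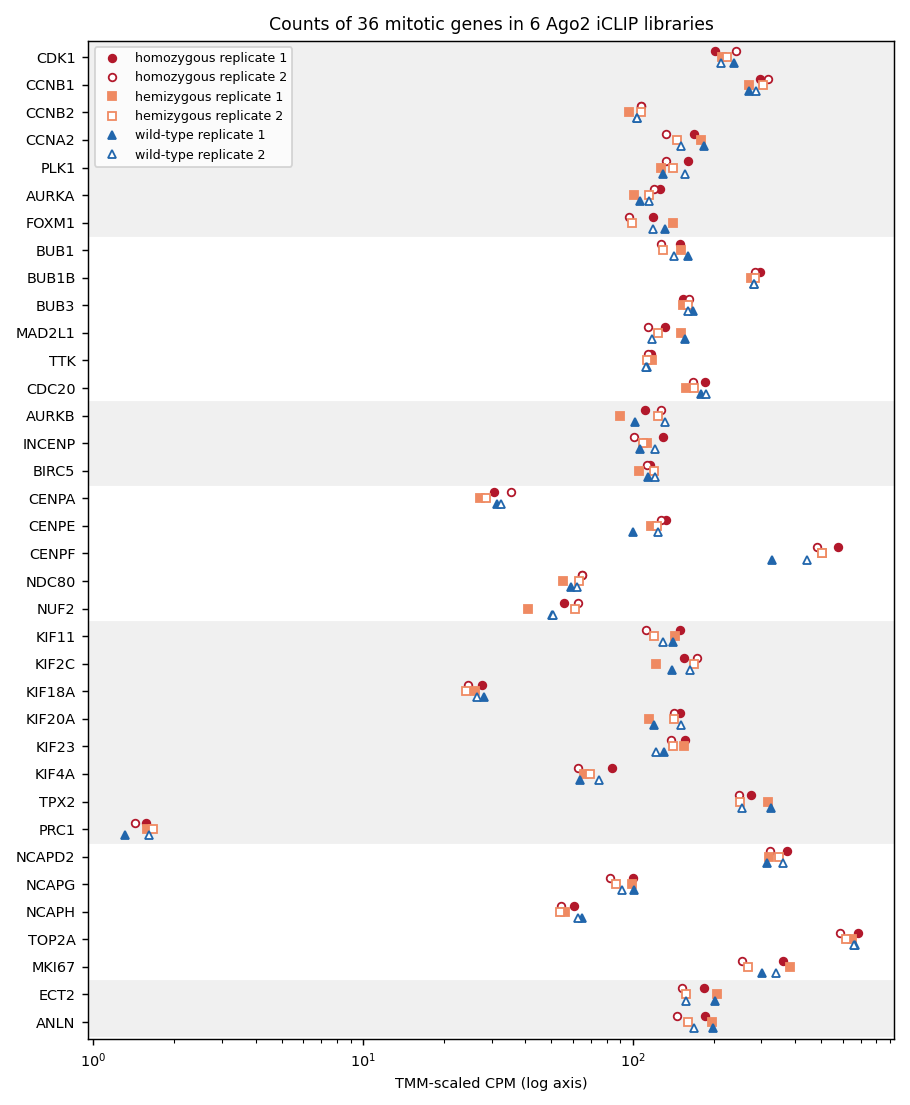
TMM-scaled CPM (log axis) of the 36 mitotic genes in each library, with filled symbols for replicate 1 and open symbols for replicate 2 and shading that separates roles. Symbols of the 3 genotypes lie within a narrow band for most genes; CENPF stands apart, with its wild-type libraries at 329 and 442 CPM, below all mutant libraries.

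**Figure D3:**
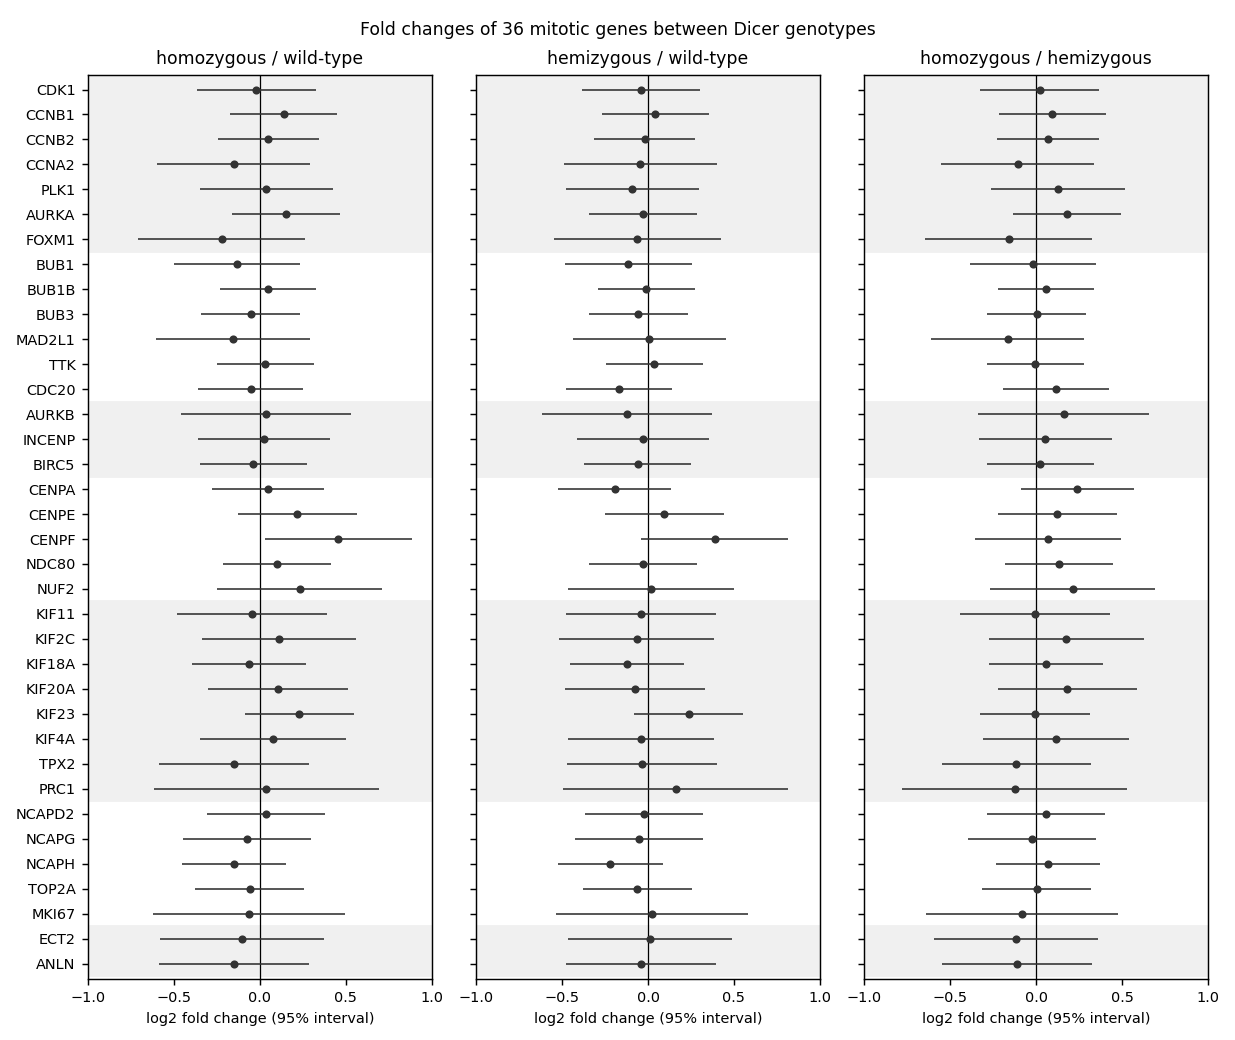
Fitted log2 fold changes of the 36 genes with 95% intervals from edgeR's model, for the 3 comparisons named above the panels (numerator first). Points cluster around 0, and CENPF lies farthest to the right in both comparisons with wild-type, at 0.46 and 0.39.

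CENPF differed most from wild-type. The gene, at chr1:214603195-214664571 in GRCh38.p14, encodes a large microtubule-binding protein of the outer kinetochore. Its level was 575 and 484 CPM in homozygous libraries, 505 and 504 CPM in hemizygous libraries and 329 and 442 CPM in wild-type libraries. All 4 mutant libraries stood above both wild-type libraries, and the mutant genotypes overlapped each other. Over all genes, 14.2% lay above both wild-type libraries in the homozygous and 8.13% in the hemizygous group. The share of all genes above in both groups was not counted. The fitted log2 fold change was 0.46 (SE 0.18, 95% interval 0.03 to 0.88) in homozygous against wild-type and 0.39 (SE 0.18, interval -0.04 to 0.81) in hemizygous against wild-type libraries. The unadjusted p was 0.0390 and 0.0680 in these comparisons, and the adjusted p by edgeR was 1.00 in both. Between libraries of the same replicate number, the homozygous minus wild-type difference was 0.81 for replicate 1 and 0.13 for replicate 2 on the log2 scale. The hemizygous minus wild-type difference was 0.62 for replicate 1 and 0.19 for replicate 2. The size thus depended on single libraries, most on those of wild-type. Without wild-type replicate 1 the fold change was 0.27 in homozygous and 0.20 in hemizygous libraries, and without wild-type replicate 2 it was 0.70 and 0.63. The homozygous fold change was 0.33 without homozygous replicate 1 and 0.58 without homozygous replicate 2. Both mutant groups were set against the same wild-type libraries.

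All 5 centromere and kinetochore genes, CENPF included, had fold changes above 0 in homozygous against wild-type libraries, with a median of 0.22 on the log2 scale and none called by edgeR. In hemizygous against wild-type libraries 3 of the 5 lay above 0, with a median of 0.02. CENPE, a kinesin that carries chromosomes to the spindle equator, had 133 and 128 CPM in homozygous, 117 and 123 CPM in hemizygous and 101 and 124 CPM in wild-type libraries. NDC80, the microtubule-binding core of the outer kinetochore, had 64.9 and 64.8 CPM in homozygous, 55.0 and 63.4 CPM in hemizygous and 59.0 and 62.0 CPM in wild-type libraries. For both genes the homozygous libraries lay above all 4 others, by a margin smaller than the gap between the wild-type replicates for CENPE and between the hemizygous replicates for NDC80. CENPE had a log2 fold change of 0.22 (SE 0.15) in homozygous against wild-type libraries, or 0.08 without wild-type replicate 1, and differed by 0.41 between the libraries of replicate 1 and by 0.04 between those of replicate 2. NUF2, the partner of NDC80, had 55.6 and 62.7 CPM in homozygous, 41.0 and 61.1 CPM in hemizygous and 50.2 and 50.7 CPM in wild-type libraries. Here hemizygous replicate 1 was the lowest library, so the homozygous and hemizygous groups overlapped. CENPA, the histone H3 variant that marks centromeres, had 30.6 and 35.4 CPM in homozygous, 27.3 and 28.5 CPM in hemizygous and 31.3 and 32.5 CPM in wild-type libraries. Both hemizygous values of CENPA were the lowest, with a log2 fold change of 0.24 (SE 0.14) in homozygous against hemizygous libraries (adjusted p = 0.999 by edgeR), the smallest unadjusted p of the 36 genes in that comparison. That value was 0.13 without homozygous replicate 2 and 0.34 without homozygous replicate 1. The 5 genes summed to 860 and 774 CPM in homozygous, 746 and 779 CPM in hemizygous and 570 and 711 CPM in wild-type libraries.

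Among the spindle motors, KIF23 was the gene with the next smallest p against wild-type. KIF23 (chr15:69414349-69448427) is the kinesin of the centralspindlin complex, which builds the midzone before the cell divides. Its level was 156 and 139 CPM in homozygous, 156 and 142 CPM in hemizygous and 130.2 and 122 CPM in wild-type libraries, and again all 4 mutant libraries stood above both wild-type ones. KIF23 differed by a log2 fold change of 0.23 (SE 0.13) in homozygous and 0.24 (SE 0.13) in hemizygous against wild-type libraries, not called by edgeR (unadjusted p = 0.131 and 0.122, adjusted p = 1.00 in both). Between libraries of the same replicate number its differences were 0.26 and 0.19 in homozygous and 0.26 and 0.21 in hemizygous against wild-type libraries for replicates 1 and 2. Without homozygous replicate 1 the homozygous fold change was 0.14. With the replicate number as a block, KIF23 had an unadjusted p of 0.0324 in homozygous and 0.0285 in hemizygous against wild-type libraries, with an adjusted p of 0.396 and 0.999 by edgeR. Under that block 12.0% of all genes had an unadjusted p under 0.05 in homozygous against wild-type libraries, where 2 of the 36 did, CENPF and KIF23. In hemizygous against wild-type libraries 3.80% of all genes and 3 of the 36 did, CENPF, KIF23 and NCAPH. In homozygous against hemizygous libraries 8.20% of all genes and 1 of the 36 did, CENPA. None of the 36 was called under the block. In both comparisons with the homozygous group their share was below that of all genes, and in hemizygous against wild-type libraries it was above. These differences in share were not tested.

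**Figure D4:**
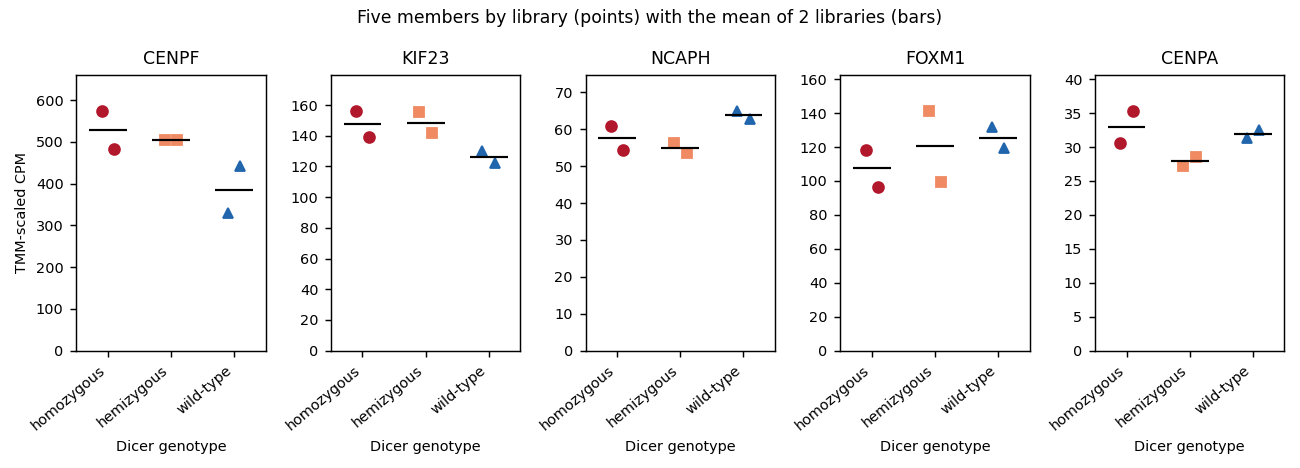
TMM-scaled CPM of CENPF, KIF23, NCAPH, FOXM1 and CENPA in the 6 libraries (points, replicate 1 on the left) with the mean of each genotype (bar). The mutant libraries of CENPF and KIF23 lie above the wild-type ones, those of NCAPH lie below, the genotypes of FOXM1 overlap in part, and hemizygous is lowest for CENPA.

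The remaining motors and spindle assembly factors had smaller differences against wild-type. KIF11, which slides antiparallel microtubules apart to make the spindle bipolar, had 150.4 and 112 CPM in homozygous, 143 and 120.1 CPM in hemizygous and 141 and 129.6 CPM in wild-type libraries. KIF20A, needed for cytokinesis, had 150.1 and 142 CPM in homozygous, 115 and 142 CPM in hemizygous and 120.2 and 151 CPM in wild-type libraries. TPX2, the activator of Aurora A on the spindle, had 275 and 249 CPM in homozygous, 317 and 251 CPM in hemizygous and 327 and 255 CPM in wild-type libraries. In TPX2 and KIF11 the replicate 1 library of each genotype was the higher one, and the genotypes overlapped. In KIF20A hemizygous replicate 1 and wild-type replicate 1 were the low libraries. KIF2C, a microtubule depolymerase, KIF18A, which damps chromosome movements, and KIF4A, a chromosome-bound motor, had log2 fold changes of 0.11, -0.06 and 0.08 in homozygous against wild-type libraries. In hemizygous against wild-type libraries the changes of KIF2C, KIF18A and KIF4A were -0.07, -0.12 and -0.04. KIF4A has the intronless copy KIF4B, whose row held 25 to 45 counts, and how reads matching both were assigned is not known here.

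PRC1, the bundler of midzone microtubules, was counted at 58 to 88 reads in each library. Its level was 1.56 and 1.43 CPM in homozygous, 1.59 and 1.67 CPM in hemizygous and 1.31 and 1.61 CPM in wild-type libraries. Each mutant genotype overlapped wild-type, while both homozygous values lay below the hemizygous ones, and its interval was the widest among the 36, from -0.62 to 0.69 on the log2 scale in homozygous against wild-type libraries. In RefSeq PRC1 overlaps PRC1-AS1, an antisense gene with a row of its own at 19 to 56 counts, and the use of strand in counting is not stated. Whether reads of the pair were told apart is not known, and the effect of the overlap on the PRC1 count was not tested. The genes CCNA2, PLK1, FOXM1, KIF20A and NCAPG also overlap other genes with rows in the table, such as EXOSC9, ERN2, RHNO1, CDC23 and LCORL, and CDC20 has the pseudogene CDC20P1, with a row at 101 to 156 counts.

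Among the genes that start mitosis, the fold changes lay between -0.22 and 0.15 on the log2 scale in homozygous and between -0.09 and 0.04 in hemizygous against wild-type libraries. CDK1, the master kinase, had 201 and 242 CPM in homozygous, 214 and 224 CPM in hemizygous and 237 and 213 CPM in wild-type libraries. CCNB1, its main B-type cyclin, had 297 and 316 CPM in homozygous, 270.3 and 304 CPM in hemizygous and 270.1 and 287 CPM in wild-type libraries. PLK1, the Polo kinase, had 161 and 133 CPM in homozygous, 127 and 142 CPM in hemizygous and 129.9 and 157 CPM in wild-type libraries. The CDK1 and PLK1 groups overlapped, and the homozygous libraries of CCNB1 lay above wild-type by a log2 fold change of 0.14 (SE 0.13). AURKA, the kinase of centrosome maturation, had 126 and 119.5 CPM in homozygous, 102 and 115 CPM in hemizygous and 106 and 115 CPM in wild-type libraries. Its homozygous libraries stood above all others, with a log2 fold change of 0.18 (SE 0.13) against hemizygous and 0.15 (SE 0.13) against wild-type libraries, neither called by edgeR. FOXM1, the transcription factor of late cell cycle genes, had 119 and 96.7 CPM in homozygous, 141 and 99.1 CPM in hemizygous and 132 and 119 CPM in wild-type libraries. Both homozygous values of FOXM1 lay below the wild-type ones, narrowly in replicate 1, with a log2 fold change of -0.22 (SE 0.20), or -0.08 without homozygous replicate 2, -0.38 without homozygous replicate 1 and -0.14 without wild-type replicate 1. CCNB2 and CCNA2, the other mitotic cyclins, had log2 fold changes of 0.05 and -0.15 in homozygous and -0.02 and -0.05 in hemizygous against wild-type libraries.

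The fold changes of the checkpoint genes and CDC20 lay between -0.16 and 0.05 in homozygous and between -0.17 and 0.04 in hemizygous against wild-type libraries on the log2 scale. BUB1B, the kinase-like inhibitor of CDC20, had 297 and 285 CPM in homozygous, 275 and 284 CPM in hemizygous and 282 and 281 CPM in wild-type libraries. BUB3, which brings the BUB proteins to kinetochores, had 153 and 162 CPM in homozygous, 154 and 161 CPM in hemizygous and 167 and 161 CPM in wild-type libraries. CDC20 itself had 186 and 167 CPM in homozygous, 157 and 169 CPM in hemizygous and 179 and 187 CPM in wild-type libraries. Both hemizygous libraries of CDC20 lay below both wild-type ones, with a log2 fold change of -0.17 (SE 0.13) against wild-type, and the homozygous group overlapped wild-type. TTK, the kinase that starts checkpoint signalling, had fold changes of 0.03 in homozygous and 0.04 in hemizygous against wild-type libraries on the log2 scale, each with an SE of 0.12. BUB1, a kinetochore kinase, and MAD2L1, the protein that captures CDC20, had -0.13 and -0.16 in homozygous and -0.11 and 0.01 in hemizygous against wild-type libraries.

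The chromosomal passenger complex, which corrects faulty attachments, had no member that separated the genotypes. AURKB, its kinase, had 111 and 128 CPM in homozygous, 89.9 and 124 CPM in hemizygous and 102 and 131 CPM in wild-type libraries. BIRC5, or survivin, had 116 and 113 CPM in homozygous, 105 and 120.0 CPM in hemizygous and 114 and 121 CPM in wild-type libraries. AURKB differed more between the replicates of a genotype than between genotype means, and the groups of both genes overlapped. INCENP, the scaffold, had log2 fold changes of 0.02 in homozygous and -0.03 in hemizygous against wild-type libraries.

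Of the genes among the 36 that shape chromosomes, NCAPH was the only one whose mutant libraries all lay on the same side of wild-type. Over all genes, 13.6% lay below both wild-type libraries in the homozygous and 9.21% in the hemizygous group. The share of all genes that did so in both groups was not counted. NCAPH, the kleisin subunit of condensin I, had 60.9 and 54.4 CPM in homozygous, 56.3 and 53.6 CPM in hemizygous and 65.1 and 62.9 CPM in wild-type libraries. NCAPH differed by a log2 fold change of -0.15 (SE 0.13) in homozygous and -0.22 (SE 0.13) in hemizygous against wild-type libraries, not called by edgeR (unadjusted p = 0.279 and 0.131, adjusted p = 1.00 in both). The homozygous value was -0.07 without homozygous replicate 2 and -0.23 without homozygous replicate 1. NCAPD2 and NCAPG, the other condensin I subunits among the 36, did not share this separation. The SMC2 and SMC4 subunits were counted only within the list of further mitotic genes and were not looked at singly. NCAPD2 had 373 and 323 CPM in homozygous, 319.8 and 348 CPM in hemizygous and 316 and 362 CPM in wild-type libraries, and NCAPG had log2 fold changes of -0.07 in homozygous and -0.05 in hemizygous against wild-type libraries. TOP2A, the topoisomerase that untangles sister chromatids, had 683 and 589 CPM in homozygous, 653 and 616 CPM in hemizygous and 666 and 659 CPM in wild-type libraries. MKI67, which coats mitotic chromosomes and serves as the Ki-67 proliferation marker, had 359.6 and 254 CPM in homozygous, 382 and 268 CPM in hemizygous and 301 and 339.6 CPM in wild-type libraries. The replicates of MKI67 in both mutant genotypes bracketed the wild-type values, and its SD was 24.5% of the mean in the homozygous group, the largest of the 36 there.

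The cytokinesis genes followed the replicate number. ECT2, which activates the small GTPase RhoA at the cleavage furrow, had 183 and 152 CPM in homozygous, 206 and 158 CPM in hemizygous and 202 and 158 CPM in wild-type libraries. ANLN, the scaffold of the contractile ring, had 185 and 145 CPM in homozygous, 197 and 159.8 CPM in hemizygous and 198 and 168 CPM in wild-type libraries. Replicate 1 was the higher library of every genotype for both genes. Their log2 fold changes were -0.11 and -0.15 in homozygous and 0.01 and -0.04 in hemizygous against wild-type libraries.

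Counted over the 36, directions were mixed. In homozygous against wild-type libraries 19 genes lay above 0 and 17 below, with a median log2 fold change of 0.03, beside 0.00 over all genes tested. In hemizygous against wild-type libraries 10 lay above 0 and 26 below, with a median of -0.04, beside 0.00 over all genes. In homozygous against hemizygous libraries 23 lay above 0 and 13 below, with a median of 0.06, beside 0.00 over all genes. The median in homozygous against wild-type libraries was -0.07 without homozygous replicate 1. That in hemizygous against wild-type libraries was -0.00401 without hemizygous replicate 1 and -0.00419 without wild-type replicate 2. Between libraries of the same replicate number, the homozygous minus wild-type median was 0.06 for replicate 1 (23 of 36 above 0) and -0.08 for replicate 2 (14 of 36 above 0). The hemizygous minus wild-type median was -0.04 for both numbers, with 13 of 36 genes above 0 in each. The homozygous minus hemizygous median was 0.11 for replicate 1 and -0.02 for replicate 2.

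Separation without overlap was counted next. In homozygous against wild-type libraries both values lay above both wild-type values for 10 of the 36 (AURKA, BUB1B, CCNB1, CCNB2, CENPE, CENPF, KIF23, NDC80, NUF2 and TTK), where 14.2% of all genes did so. Both lay below for 2 genes, FOXM1 and NCAPH, where 13.6% of all genes did so. In hemizygous against wild-type libraries 3 genes lay above (CENPF, KIF23 and TTK; 8.13% of all genes) and 6 below (BUB3, CDC20, CENPA, KIF18A, NCAPH and TOP2A; 9.21% of all genes). In homozygous against hemizygous libraries 5 lay above (AURKA, BUB1B, CENPA, CENPE and NDC80; 11.0% of all genes) and PRC1 alone lay below (10.4% of all genes). The share above wild-type in the homozygous group was larger than that of all genes, and that below was smaller; the difference was not tested, and 9 of those 10 genes had log2 fold changes of 0.23 or less.

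The libraries of a genotype were compared with each other by replicate number. For 14 of the 36 genes replicate 1 was above replicate 2 in all 3 genotypes (38.9%, against 29.9% of all genes). These were CCNA2, FOXM1, BUB1, MAD2L1, TTK, KIF11, KIF18A, KIF23, TPX2, NCAPG, NCAPH, TOP2A, ECT2 and ANLN. For 5 genes replicate 2 was above in all 3 genotypes (13.9%, against 28.3% of all genes), namely CCNB1, AURKB, CENPA, NUF2 and KIF2C. For 11 genes replicate 1 was above only in the homozygous group (30.6%, against 11.9% of all genes): CCNB2, PLK1, AURKA, CDC20, BIRC5, CENPE, NDC80, KIF20A, KIF4A, PRC1 and NCAPD2. Homozygous replicate 1 was the highest of the 6 libraries for 13 of the 36 genes (14.7% of all genes) and the lowest for 2 (13.7% of all genes). Homozygous replicate 2 was the highest for 5 (20.5% of all genes) and the lowest for 13 (22.4% of all genes). Hemizygous replicate 1 was the lowest for 12, and also for 25.0% of all genes. The median size of the gap between replicates over the 36 was 0.19 in homozygous, 0.16 in hemizygous and 0.15 in wild-type libraries on the log2 scale, against 0.21, 0.29 and 0.25 over all genes. All genes include rows with few counts (lowest row total 132), and the 2 sets were not matched for depth.

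**Figure D5:**
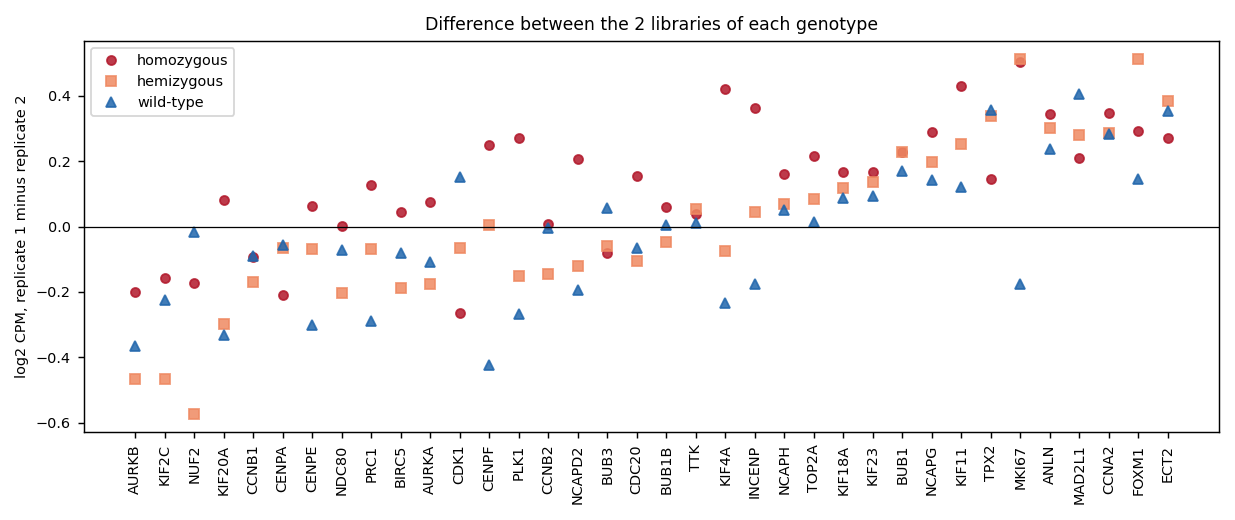
Difference in log2 CPM between replicate 1 and replicate 2 for the 36 genes, ordered by the mean over genotypes, with a symbol for each genotype. AURKB, KIF2C and NUF2 at the left are higher in replicate 2 of every genotype, ECT2, FOXM1 and CCNA2 at the right are higher in replicate 1 of every genotype, and many genes between have the homozygous point above 0 and the others below.

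Other genes of the pathway were counted in the same way. Of 67 measured further mitotic genes (of 72 listed), 0 were called in any comparison, and the medians were 0.01 in homozygous and 0.00 in hemizygous against wild-type libraries, with 35 of 67 above 0 in each. Of the 14 subunits of the anaphase-promoting complex, 9 lay above 0 in homozygous and 8 in hemizygous against wild-type libraries, with none called. Between libraries of the same replicate number, their homozygous minus wild-type median was -0.13 for replicate 1 and 0.13 for replicate 2. Of the 11 cohesin genes, which hold sister chromatids together, 8 lay below 0 in homozygous against wild-type libraries, with a median of -0.11, and 10 lay above 0 in hemizygous against wild-type libraries, with a median of 0.08. In homozygous against hemizygous libraries all 11 lay below 0, with a median of -0.18, and none was called in any comparison. In every genotype replicate 1 exceeded replicate 2 for all 11. Of the 10 MuvB and related regulators, 7 lay below 0 in homozygous and 8 in hemizygous against wild-type libraries.

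Genes of DNA synthesis act earlier in the cycle. Of 24 S-phase and licensing genes, 18 lay below 0 in homozygous against wild-type libraries, with a median of -0.11 and none called, beside 17 of 36 and 0.03 for the mitotic genes. Of the same genes, 11 of 24 lay above 0 and 13 below in hemizygous against wild-type libraries, with a median of 0.00. For 14 of these 24 genes, too, replicate 1 was above replicate 2 in every genotype. The difference between the lists was not tested. Across these lists the smallest unadjusted p values were those of NSL1, a kinetochore subunit (log2 fold change 0.23, SE 0.12), and TFDP1, the partner of E2F factors (-0.41, SE 0.23), in homozygous against wild-type libraries. For hemizygous against wild-type libraries they were those of CCNE2, an S-phase cyclin (0.48, SE 0.27), and LIN37, a MuvB subunit (-0.43, SE 0.29). LIN37 was also first in homozygous against hemizygous libraries (0.89, SE 0.29, unadjusted p = 0.0196), at 1.21 and 1.40 CPM in homozygous and 0.704 and 0.702 CPM in hemizygous libraries, which rest on 55 and 57 counts in homozygous and 27 and 37 counts in hemizygous libraries. It was followed by CDCA3 (0.20, SE 0.13), and none of these was called by edgeR.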

How the data were processed

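Counts of reads per gene were taken from 6 Ago2 iCLIP libraries, 2 for each of 3 Dicer genotypes, as whole-number counts in the authors' deposited table, without normalization. The genome build was hg38, per the submitters' processing notes. How reads were aligned, deduplicated and assigned to genes, and with which annotation and strand setting, is not given in the sources used here. IgG libraries were not analysed here. Columns were tied to samples by their descriptions, and 0 columns were unused. The lowest row total was 132.

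Counts were filtered with filterByExpr, which kept all 16199 rows, scaled with TMM factors and tested across all genes with the glmQLFTest function of edgeR 4.0.16 (R 4.3.3), with a mean for each genotype. Calls needed an adjusted p (Benjamini-Hochberg) under 0.05. Standard errors were computed as the fold change over the root of F. Per-library differences use log2 CPM with a prior count of 2. The pipeline was tested on simulated data. The genes and lists were chosen with earlier results of these data known. All 36 genes are named; values in every library are given for a representative of each role, for the 4 genes with the smallest p in each comparison, and for the genes with the most and fewest counts (TOP2A and PRC1). Of the other lists, the 2 genes with the smallest p in each comparison are named.

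Other settings tried were 3 scalings (library size, RLE, upper quartile), 2 filters, DESeq2 1.42.0, limma-voom (limma 3.58.1), a fit to the compared groups alone, a replicate block, and leaving out single libraries. Replicate differences correlated across genes at 0.48 between homozygous and hemizygous, 0.36 between homozygous and wild-type and 0.74 between hemizygous and wild-type cells. Over the 36 genes these correlations were 0.71, 0.17 and 0.62. All were over the 0.1 set for pairing, so replicate numbers were taken to pair the libraries in the replicate block and the same-number differences. The main fit held no replicate term, so its p-values, SEs and intervals leave this pairing out. Libraries held 38.2 M to 52.9 M counts; genes with few counts, such as PRC1 and LIN37, are limited by counting error as well as by the spread between libraries. RefSeq (GRCh38.p14) gave gene positions, overlaps and promoter sequences.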

Additional observations from a re-analysis of the deposited data

How the results depend on the processing

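The count of called mitotic genes was 0 in all 3 comparisons under each of the 9 alternative settings and with each of the 6 libraries left out. Over all genes the count was 0 by edgeR, while DESeq2 called 7 in hemizygous against wild-type, 10 in homozygous against wild-type and 10 in homozygous against hemizygous libraries. With the replicate block it was 1, 0 and 1 in these comparisons, and the block changed no call among the 36. Leaving out a library gave 0 to 2, 0 to 1 and 0 to 3 called genes. The median log2 fold change of the 36 genes ranged from -0.0388 to -0.00401 with a library left out in hemizygous against wild-type, from -0.0653 to 0.0520 in homozygous against wild-type (0.03 with all libraries) and from -0.03 to 0.10 in homozygous against hemizygous libraries. The cause of these moves was not tested. Other settings changed the sign of at most 2, 1 and 5 of the 36 fold changes, and leaving out a library changed up to 14, 14 and 18, none of them called. The scalings moved the median of all genes by at most 0.03 on the log2 scale. With 2 libraries a genotype the spread is poorly known, and depth also limits genes with few counts, such as PRC1 and LIN37. With a library left out, its lone partner is assumed to vary like the other groups.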
